A study of Sus scrofa with 6 samples.

Results

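Endothelial cells line the glomerular capillaries, peritubular capillaries and arteries of the kidney cortex, and this account describes 10 genes by which they are commonly recognised or through which they signal to blood. The genes are TEK, NOS3, PECAM1, VWF, KDR, SELE, SELP, ICAM1, EDN1 and CDH5, and their probes were taken where the gene name in the scanner files was exactly one of these symbols. This gave 16 of the 43603 probes on the array, for 8 of the 10 genes, with 1 to 4 probes a gene. KDR and ICAM1 had no probe under these exact symbols. Probes that the files tie to them in another way are described separately.

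RNA of the renal cortex was measured in 6 kidneys of Large White pigs aged 3 months, with 1 single-colour Agilent array per kidney and a different pig for each kidney. In the ischemia group (n = 3) the kidney was clamped and left clamped for 60 min at 37 °C, flushed with cold University of Wisconsin solution, a preservation fluid, and stored at 4 °C for 24 h before it was sampled. Control kidneys (n = 3) were taken out and sampled straight away, with neither clamping nor storage. Warm ischemia, flush and cold storage therefore act as 1 sequence, and no label mentions reperfusion of the organ. Each of the 3 slides carried 1 ischemia and 1 control array, but all ischemia arrays occupied position 3 and all control arrays position 4, which means that an effect of position cannot be told apart from one of group. Between 52.6% and 61.4% of the spots of an array were well above background, and precision is limited by having 3 arrays a group.

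TEK encodes TIE2, the endothelial receptor of the angiopoietins, which keep vessels quiescent or destabilise them. KDR is the main signalling receptor of VEGF, and NOS3 makes the nitric oxide that relaxes vessels, whereas EDN1 encodes the vasoconstrictor endothelin 1. CDH5 (VE-cadherin) and PECAM1 (CD31) hold endothelial cells together at their junctions. VWF tethers platelets and is stored with SELP (P-selectin) in the same endothelial granules. SELE (E-selectin) is made mainly after inflammatory activation, and together with SELP and ICAM1 it slows and arrests passing leukocytes. PECAM1, VWF and SELP are also made by platelets or their precursors, and ICAM1 and EDN1 are made by tubular epithelium as well.

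All probes are oligonucleotides of 60 bases, and those of TEK, NOS3, PECAM1 and SELE are shown because different probes of the same gene bear on how far each result can be trusted. The first 30 bases of each are given, 5′ to 3′, with the start that the file gives within the transcript. The 3 TEK probes start at bases 3772, 4215 and 4302 of transcript ENSSSCT00000005647 and do not overlap.
TEK A_72_P598553: agagaggtgacatagaatatggacatgtat
TEK A_72_P691513: cttcctcacctgtagaagccatctcaattt
TEK A_72_P209977: ctaacactgaaaaacagacttaaatctcat
The NOS3 probes start at bases 1675 and 3917 of NM_214295.
NOS3 A_72_P442218: agtatgacgtggtgtccttggagcacgaga
NOS3 A_72_P177526: cctctctcaggagtatctctctcatctcat
Of the 4 PECAM1 probes, 3 start at bases 556, 2089 and 2486 of NM_213907, and the last starts at base 3361 of the clone AK232876.
PECAM1 A_72_P218027: cacttgttctgtcccagaggaaaaacctcc
PECAM1 A_72_P446708: caacagacactatggttacaatgaagatgt
PECAM1 A_72_P077376: tcttagctacatttatgctgggtataaaga
PECAM1 A_72_P650260: tcgcagggacccggcagggtgctgtattaa
The SELE probes start at bases 3078 and 3120 of NM_214268 and share 18 bases, shown in capitals in the last 30 bases of the upstream probe and the first 30 of the downstream one, so they are not independent measurements.
SELE A_72_P440056: aaagtaacaggaAGATATGATGAAGATCAG
SELE A_72_P035596: AGATATGATGAAGATCAGaatagcagaggt

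TEK had the largest difference among the probes well above background on all arrays, with a signal 1.64 to 1.72 times as high in ischemia kidneys on its 3 probes, while the probes of PECAM1, VWF, CDH5, NOS3 and SELP differed by less than their standard errors or little more. No member probe passed the test. Of the 16 probes, 13 were tested, 12 of which were well above background on all 6 arrays. With limma and Benjamini-Hochberg adjustment over all 25017 probes tested, 0 of these 13 had an adjusted p under 0.05, where the share of all probes called was 0.004%. Without adjustment 3 member probes, all of TEK, had p under 0.05, where the share of all probes was 6.3%. These 3 were higher in ischemia, as were 2.99% of all probes at that threshold, and 0 member probes were lower, against 3.31% of all probes. Since the 3 probes target 1 transcript, this is 1 of 7 genes tested. The difference was above 0 for 10 of the 13 probes, against 44.2% of all probes tested, and its median over the 7 genes was 0.21 on the log2 scale, against 0.02 over 3663 named genes. That median was 0.14 with normexp background correction and 0.36 with median centring. In the authors' deposited table it was 0.38 over fewer genes, since that table lacks the brightest tested probes of NOS3 and CDH5. Over the 13 probes the median was also 0.21, and it was 0.026 without ischemia 3 and 0.42 without ischemia 2. The count depended on single kidneys. It was 7 of 13 without ischemia 3 and 12 of 13 without ischemia 2, and with median centring of the arrays it was 12 of 13, a setting in which 63.5% of all probes were above 0. In bulk tissue, fewer cells of a type and less RNA per cell cannot be told apart.

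**Figure D1:**
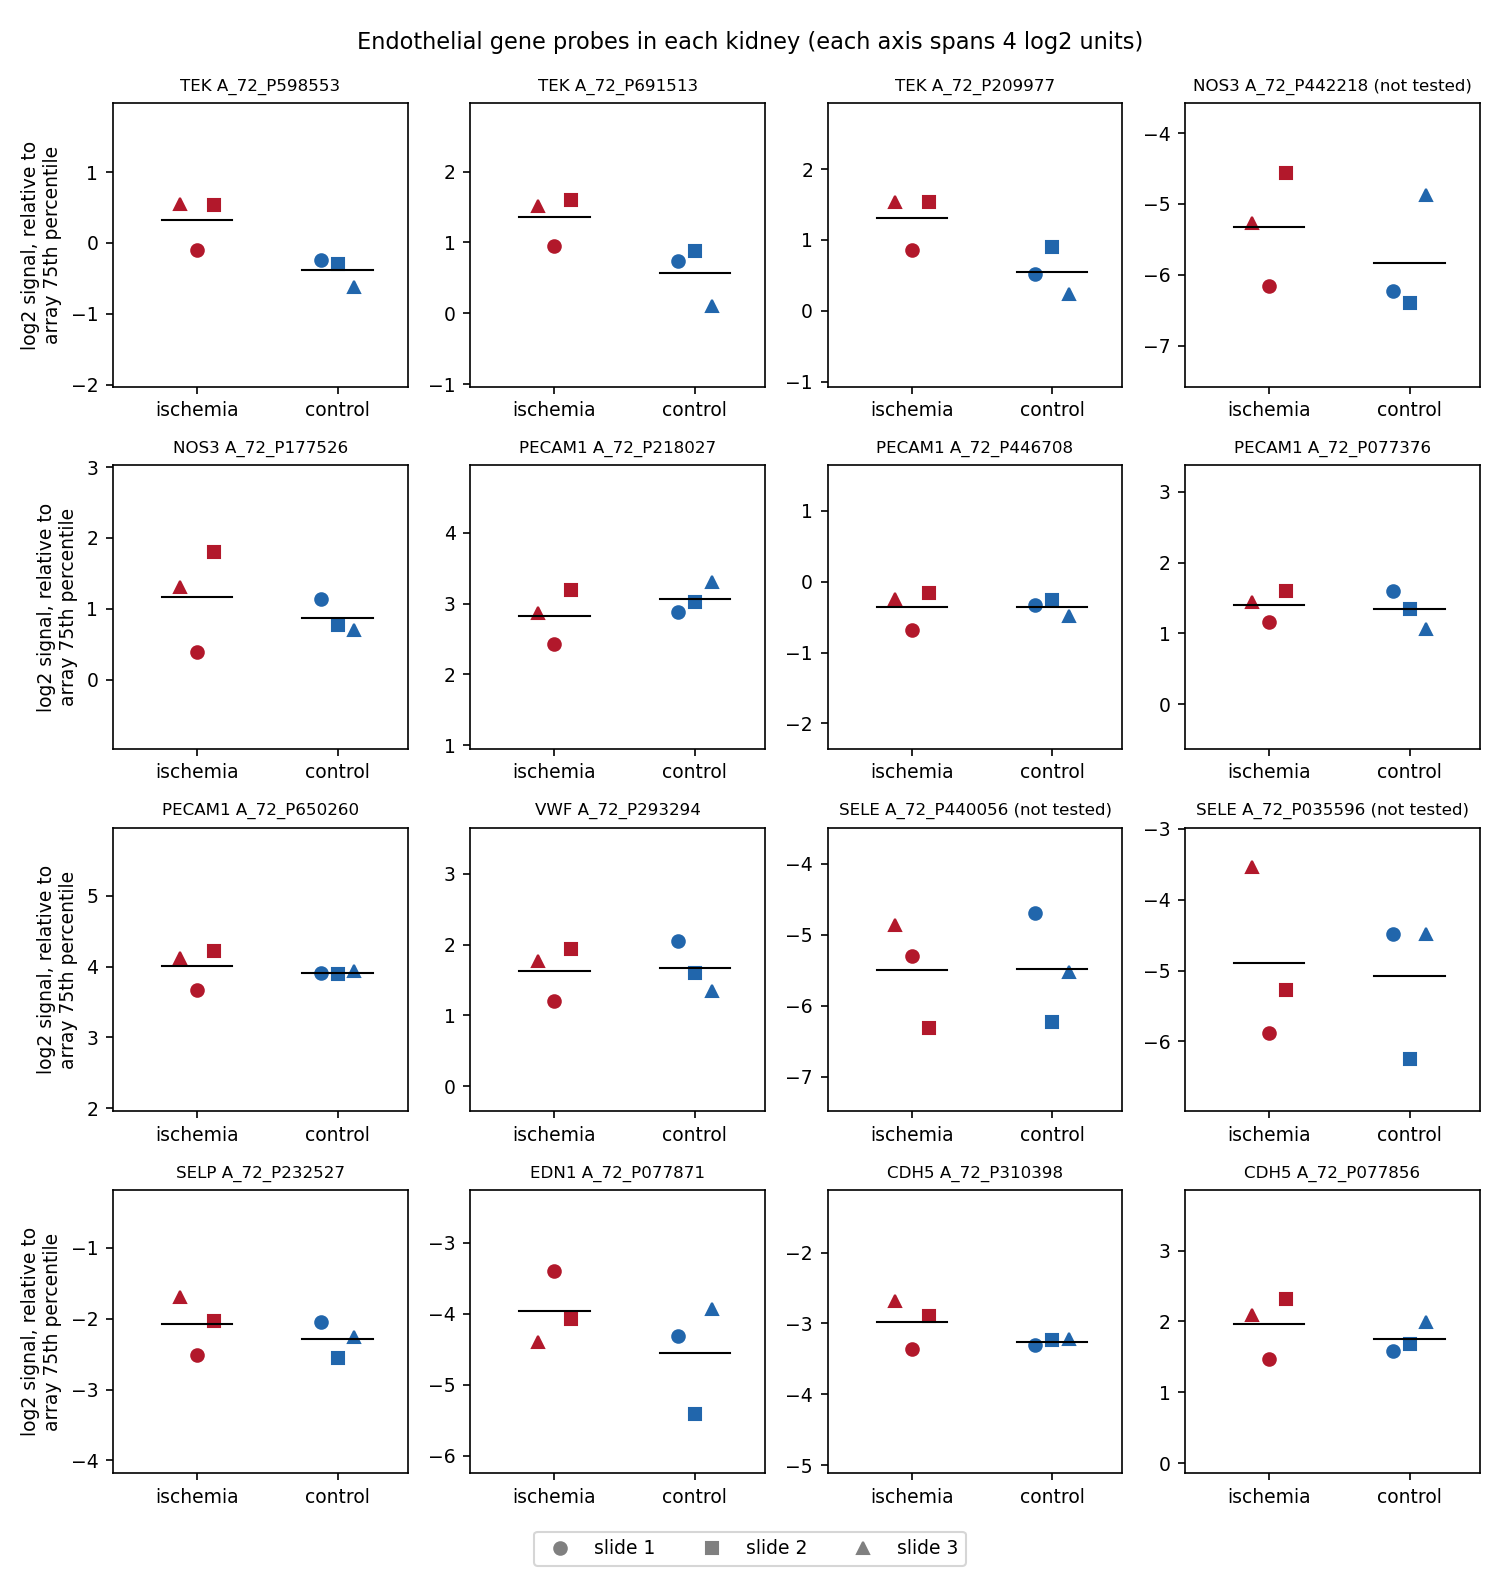
Log2 signal of each of the 16 endothelial probes relative to the 75th percentile of its array, by group, with 1 point per kidney, the marker giving the slide and the line the group mean. On the TEK probes A_72_P598553 and A_72_P691513 the ischemia kidneys lie above all control kidneys, and on the other probes the groups overlap.

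Values are given as log2 signal relative to the 75th percentile of the array, in the order of kidneys 1, 2 and 3. TEK probe A_72_P598553 read 0.55, -0.10 and 0.54 in ischemia kidneys, against -0.24, -0.29 and -0.62 in control kidneys. Ischemia 2 was the lowest of its group but still above every control. The log2 difference was 0.71 ± 0.25 (SE, limma unadjusted p = 0.0243, adjusted p = 0.740). TEK probe A_72_P691513 read 1.52, 0.95 and 1.60 in ischemia kidneys, against 0.74, 0.88 and 0.11 in control kidneys. The groups did not overlap, although ischemia 2 and control 2 lay close together. This probe differed by 0.78 ± 0.29 (SE, limma unadjusted p = 0.0298, adjusted p = 0.748). TEK probe A_72_P209977 read 1.53, 0.86 and 1.53 in ischemia kidneys, against 0.52, 0.90 and 0.24 in control kidneys. Here control 2 lay above ischemia 2, so the groups overlapped. On the log2 scale it differed by 0.75 ± 0.28 (SE, limma unadjusted p = 0.0299, adjusted p = 0.748).

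The order of the TEK values by kidney was thus nearly shared by its 3 probes. Ischemia 1 and ischemia 3 were high, and control 3 was low. Among all probes tested, 5.89% had ischemia values above all control values, and 2 of the 13 member probes did. Within slides 1, 2 and 3 the TEK differences were 0.14, 0.83 and 1.17 on A_72_P598553, 0.22, 0.72 and 1.41 on A_72_P691513, and 0.34, 0.63 and 1.30 on A_72_P209977. All 9 were above 0, and the size differed several-fold between slides. The 3 probes read 1 transcript on the same 3 slides, so the 9 values are not independent. With slide as a block the limma adjusted p of the 3 probes was 0.492, 0.485 and 0.455. In that fit the same 3 of 13 member probes had an unadjusted p under 0.05, against 9.26% of all probes, or 3.63% counting those higher in ischemia. Without ischemia 1, ischemia 3 or control 3, none of the 3 probes reached an unadjusted p under 0.05.

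NOS3, the endothelial nitric oxide synthase, was readable on 1 of its 2 probes. Probe A_72_P177526 read 1.31, 0.39 and 1.81 in ischemia kidneys, against 1.14, 0.78 and 0.71 in control kidneys. The ischemia kidneys spread on both sides of the control range, with ischemia 3 the highest of all 6 and ischemia 2 the lowest. The log2 difference was 0.30 ± 0.37 (SE, limma adjusted p = 0.944), and it was 0.68 without ischemia 2 and -0.02 without ischemia 3. Within slides it was -0.74, 1.03 and 0.60. The other probe, A_72_P442218, was below the well-above-background limit on all 6 arrays, so no fold is given for it.

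The junction genes showed small differences. CDH5 probe A_72_P077856 read 2.09, 1.47 and 2.31 in ischemia kidneys, against 1.58, 1.69 and 1.99 in control kidneys. The groups overlapped, ischemia 2 being the lowest of all 6 kidneys. The log2 difference was 0.20 ± 0.27 (SE, limma adjusted p = 0.944), and on the dimmer CDH5 probe A_72_P310398 it was 0.28 ± 0.23 (SE, limma adjusted p = 0.926). With each array left out in turn A_72_P077856 ran from 0.026 (without ischemia 3) to 0.45 (without ischemia 2), and A_72_P310398 from 0.13 (without ischemia 1) to 0.47 (without ischemia 2).

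PECAM1 was measured by 4 probes, all well above background on all arrays. Probe A_72_P650260 read 4.11, 3.68 and 4.22 in ischemia kidneys, against 3.91, 3.89 and 3.93 in control kidneys. The control kidneys were nearly equal (SD 0.018), and the ischemia kidneys lay on both sides of them. Its log2 difference was 0.09 ± 0.21 (SE, limma adjusted p = 0.964). On NM_213907 the differences were -0.24 ± 0.26, -0.01 ± 0.22 and 0.06 ± 0.23 (SE) for the probes that start at bases 556, 2089 and 2486, so the sign differed with the probe. Each of these differences was smaller than its standard error, so their order along the transcript is not established. On CDH5 the order was the reverse, with 0.28 for the probe that starts at base 2623 and 0.20 for that at base 3795. Across the array, differences were more often higher towards the 3′ end. In 1513 transcripts with tested probes at least 500 bases apart, the difference of the probe furthest 3′ was higher than that of the probe furthest 5′ by a median of 0.08 on the log2 scale, and it was higher in 67.4% of them. The median log2 signal of the 3′ probe relative to the 5′ probe was 2.19, 2.19 and 2.27 in ischemia kidneys, against 2.09, 2.11 and 2.21 in control kidneys, and the groups overlapped. The part of the place of a probe in the results of PECAM1, CDH5 or TEK was not tested.

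VWF probe A_72_P293294 read 1.77, 1.20 and 1.94 in ischemia kidneys, against 2.05, 1.60 and 1.35 in control kidneys. The groups overlapped throughout. Its difference was -0.03 ± 0.28 (SE, limma adjusted p = 0.993), and it changed sign without control 1 (0.16) or ischemia 2 (0.19). SELP, the P-selectin gene, read -1.70, -2.51 and -2.03 in ischemia kidneys, against -2.05, -2.56 and -2.26 in control kidneys on A_72_P232527. Ischemia 1 was the highest kidney, and the difference was 0.21 ± 0.27 (SE, limma adjusted p = 0.944). It was 0.017 without ischemia 1, 0.072 without control 2, 0.33 without control 1 and 0.42 without ischemia 2. SELE, the selectin made upon activation, was at or near background. Probe A_72_P440056 was well above background on 0 of 6 arrays, and A_72_P035596 was so on 1 of 3 ischemia arrays (ischemia 1) and 0 of 3 control arrays. No fold is given for SELE, since the bound against the control arrays was under 1. EDN1 was dim too, well above background on 2 of 3 ischemia and 1 of 3 control arrays. It read -4.40, -3.40 and -4.07 in ischemia kidneys, against -4.31, -5.41 and -3.93 in control kidneys on A_72_P077871. The groups overlapped, and control 2 alone was low. The log2 difference was 0.59 ± 0.43 (SE, limma adjusted p = 0.910), and it was -0.06 with normexp background correction and 0.16 without control 2.

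**Figure D2:**
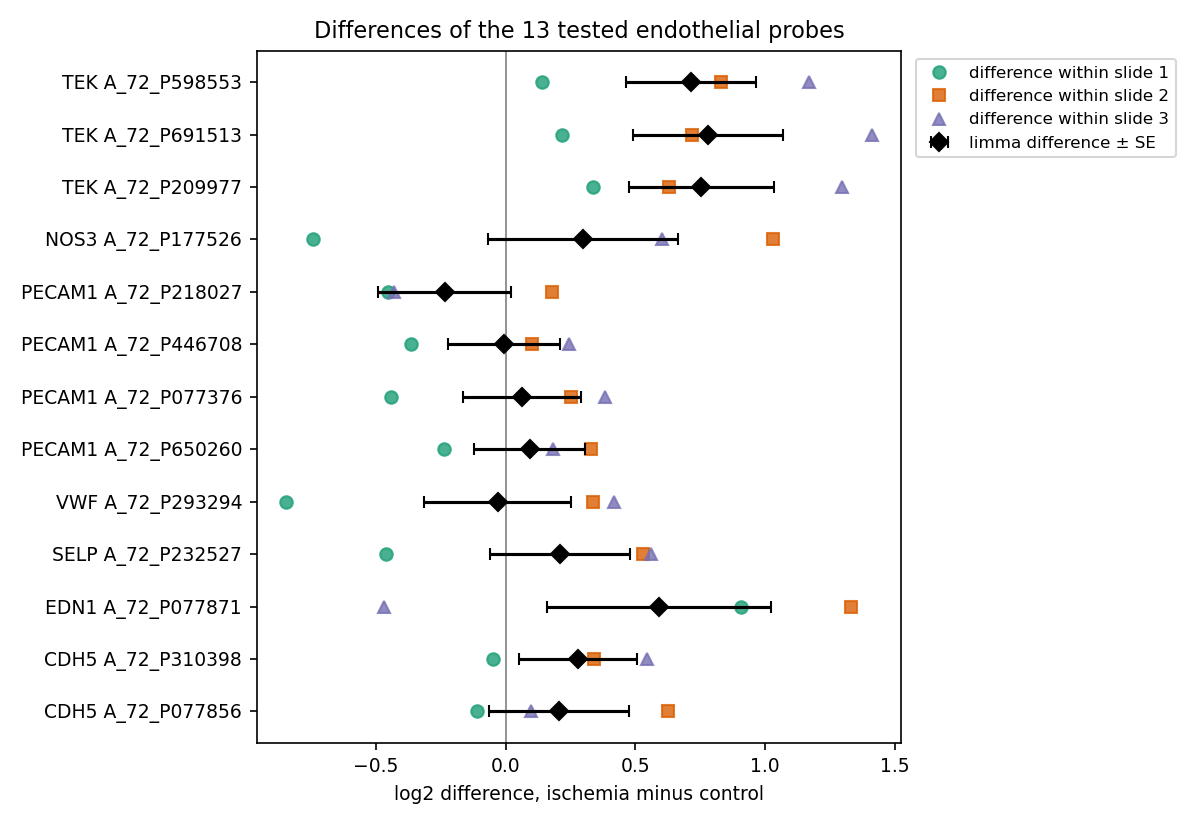
Log2 difference, ischemia minus control, of the 13 tested probes (diamonds, with SE from limma) and the difference within each slide (coloured markers). The 3 TEK probes lie between 0.71 and 0.78 with all slides above 0, while NOS3, PECAM1, VWF, CDH5 and SELP are below 0 on slide 1.

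The spread between ischemia kidneys was a common feature of the tested probes. The 13 probes read 7 genes, so the counts of probes that follow are not counts of independent measurements. The SD was larger in ischemia than in control kidneys for 10 of 13 probes, against 49.9% of all probes tested. Ischemia 2 was the lowest of the ischemia kidneys on 12 of 13 probes, against 32% of all probes tested. The exception was EDN1. On slide 1, which carries ischemia 2 and control 1, the difference was above 0 for 4 of 13 probes, whereas it was above 0 for 13 on slide 2 and 11 on slide 3. No share of all probes stands beside these counts by slide, so they cannot be read as particular to these genes. Pearson correlations over the 6 arrays among NOS3, PECAM1, VWF, CDH5 and SELP (brightest probe each) ran from 0.35 for VWF with CDH5 to 0.94 for NOS3 with PECAM1. TEK had correlations of 0.43 to 0.67 with these 5 genes. EDN1 had correlations of -0.37 to 0.08 with them. These are descriptions over 6 arrays that share scaling and slides.

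The TEK values were also set against 5 other members, NOS3, PECAM1, VWF, CDH5 and SELP, which are those with a probe under the rule that was well above background on all 6 arrays. EDN1 was too dim, and KDR and ICAM1 stand outside the rule. This comparison was chosen after the values had been seen, and it carries no test. Groups without overlap were not particular to TEK. Of all probes tested, 5.89% had every ischemia value above every control value, and 5% had every one below. On their brightest probes CAV1, KLF4, VEGFD, ARG2, EDNRB, VCAM1 and CD163 were likewise higher in all ischemia kidneys. NRP1, CD247, GP9, SLC22A6 and KDR A_72_P442740 were lower in all of them. As deviations from each gene's control mean, the mean of NOS3, PECAM1, VWF, CDH5 and SELP was 0.33, -0.34 and 0.47 in ischemia kidneys, against 0.14, -0.10 and -0.04 in control kidneys. The control kidneys lay between the ischemia kidneys. The mean of the 3 TEK probes relative to that profile was 0.62, 0.66 and 0.51 in ischemia kidneys, against -0.05, 0.35 and -0.30 in control kidneys. All ischemia values were above all control values, with a mean of 0.60 ± 0.078 in ischemia and an SD of 0.33 in control kidneys (n = 3 each). Such a value within an array cannot tell which of the genes changed, and whether they changed unequally was not tested.

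**Figure D3:**
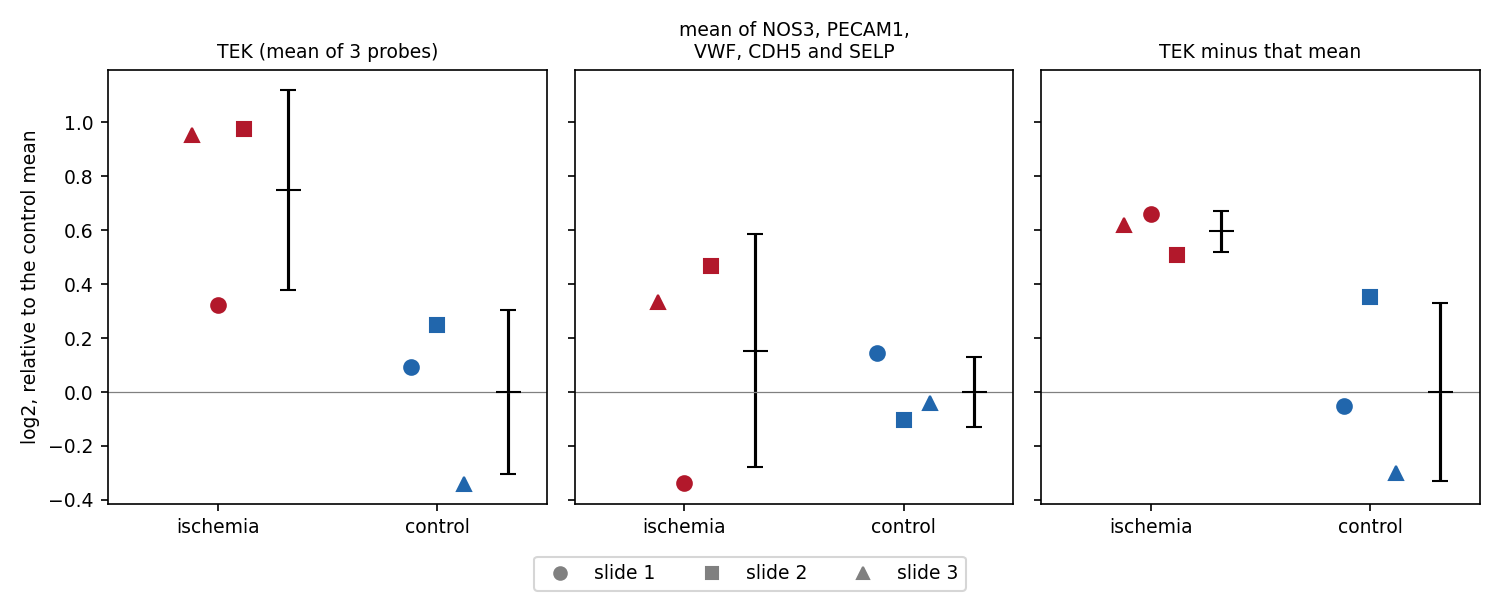
Log2 deviation from the control mean of TEK (mean of 3 probes), of the mean of NOS3, PECAM1, VWF, CDH5 and SELP, and of TEK minus that mean, with 1 point per kidney and bars giving mean ± SD. TEK minus the other genes is 0.51 to 0.66 in ischemia kidneys and -0.30 to 0.35 in control kidneys.

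KDR and ICAM1 were reached by other labels of the files and stand outside the count of members. The ICAM1 probe, A_72_P223937, carries the name ICAM-1 and an accession of that gene. It read 1.41, 1.78 and 1.68 in ischemia kidneys, against 1.47, 1.23 and 1.32 in control kidneys. The groups overlapped only through ischemia 1 and control 1, and the log2 difference was 0.29 ± 0.20 (SE, limma adjusted p = 0.906). KDR had 2 probes that disagreed. A_72_P380298, tied to KDR by accession, read 2.20, 1.52 and 2.03 in ischemia kidneys, against 1.87, 1.92 and 1.62 in control kidneys, a difference of 0.11 ± 0.24 (SE, limma adjusted p = 0.963). A_72_P442740, tied to KDR by its description, read -0.52, -0.79 and -0.41 in ischemia kidneys, against -0.10, -0.12 and -0.33 in control kidneys. On this probe all ischemia kidneys lay below all control kidneys, as they did for 5% of all probes tested, with a difference of -0.39 ± 0.20 (SE, limma adjusted p = 0.863). A further VWF probe named by description, A_72_P442685, was well above background on 0 of 6 arrays.

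Among partners of TEK and KDR in the Tie and VEGF axis, 8 of 13 genes were tested, with 4 above and 4 below 0 and 0 past the adjusted threshold. Without adjustment 1 of the 8 had p under 0.05, against 6.3% of all probes, namely NRP1, a co-receptor of VEGF and semaphorins. NRP1 read -2.39, -2.72 and -1.92 in ischemia kidneys, against -1.45, -0.82 and -0.50 in control kidneys. Every ischemia kidney was below every control kidney, with a log2 difference of -1.42 ± 0.32 (SE, limma adjusted p = 0.496) and -1.27, -1.10 and -1.89 within slides. VEGFD, a ligand of KDR and FLT4 in humans, differed by 0.87 ± 0.38 (SE, limma unadjusted p = 0.0546, and 0.0118 with slide as a block). PTPRB, the endothelial phosphatase that restrains TIE2, differed by 0.48 ± 0.29 (SE). PGF, a ligand of FLT1, was dim and differed by -0.16 ± 0.39 (SE). The angiopoietins ANGPT1 and ANGPT2 differed by -0.02 ± 0.27 and 0.07 ± 0.19 (SE).

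In the nitric oxide and endothelin axis all 6 tested genes of 14 had a difference above 0, against 53% of named genes, and 0 passed the adjusted threshold. Their median was 0.53, and it was 0.29 with normexp and 0.38 in the authors' deposited table. Without adjustment 3 had p under 0.05 and were higher, against 2.99% of all probes. ARG2, an arginase that competes with nitric oxide synthases for arginine, read 3.03, 3.26 and 4.07 in ischemia kidneys, against 2.60, 1.53 and 1.94 in control kidneys. Its groups did not overlap, and its log2 difference was 1.43 ± 0.37 (SE, limma adjusted p = 0.593), with 1.32 to 1.62 over its 3 probes. EDNRB, the type B receptor of endothelin, differed by 0.66 ± 0.23 (SE, limma adjusted p = 0.734). CAV1, the caveolar protein that binds and restrains NOS3, differed by 0.55 ± 0.23 (SE, limma adjusted p = 0.779), and its unadjusted p of 0.0458 was 0.0611 with slide as a block. Over the 4 tested CAV1 probes the difference ran from 0.32 to 0.55. EDN3, another endothelin, differed by 0.51 ± 0.64 (SE) and was dim, well above background on 2 of 3 ischemia and 1 of 3 control arrays.

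Of the leukocyte adhesion partners, 9 of 14 were tested, 4 above and 5 below 0, with a median of 0.00 and 0 past the adjusted threshold. VCAM1, which binds leukocyte integrins, read 2.11, 2.40 and 2.44 in ischemia kidneys, against 1.68, 1.83 and 1.91 in control kidneys. Its log2 difference was 0.51 ± 0.19 (SE, limma adjusted p = 0.751). Its unadjusted limma p was 0.0332, and 0.0522 with slide as a block. VCAM1 was the only gene of the 9 under 0.05 without the block, against 6.3% of all probes, and with the block there were 0. CD34, a sialomucin of endothelial and progenitor cells, differed by -0.21 ± 0.26, and ICAM3 by -0.19 ± 0.25 (SE). The P-selectin ligand SELPLG was well above background on 0 arrays.

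The cell type lists place these values in the tissue. Proximal tubule markers, which define most of the cortex, were bright, with a mean of 5.04 to 5.35 in ischemia kidneys, against 5.51 to 6.36 in control kidneys. On the brightest probe of each gene all 5 tested of 9 were below 0, whereas 53% of named genes were above 0. The median of the list was -0.73, and it was -0.40 in the authors' deposited table. SLC34A1 had 2 tested probes that disagreed, at -0.64 and 0.35. The organic anion transporter gene SLC22A6 had a difference of -1.03 ± 0.36 (SE, limma adjusted p = 0.729). ANPEP, a peptidase of the brush border, differed by -0.73 ± 0.28 (SE, limma adjusted p = 0.754). Other endothelial markers had 4 of 9 tested genes above 0 and a median of -0.04 (0.11 with median centring), with a mean signal of -0.02 to 0.17 in ischemia kidneys, against -0.06 to 0.28 in control kidneys. In this list SOX18, an endothelial transcription factor, differed by -0.51 ± 0.25 and KLF4 by 0.53 ± 0.28 (SE). Over the 7 tested KLF4 probes the difference ran from 0.059 to 0.59. Mural and fibroblast markers had a median of 0.23, with all 4 tested above 0, against 53% of named genes. Among them were DCN at 0.31 ± 0.22 and ACTA2 at 0.28 ± 0.22 (SE). The difference ran from 0.047 to 0.69 over 5 DCN probes and from 0.22 to 0.60 over 7 ACTA2 probes. The mean of the mural list was 3.93 to 4.03 in ischemia kidneys, against 3.65 to 3.89 in control kidneys. Platelet markers rested on 2 genes, GP9 at -0.23 ± 0.18 and ITGA2B at 0.24 ± 0.22 (SE), with a mean of -0.21 to -0.01 in ischemia kidneys, against -0.29 to 0.06 in control kidneys, and GP1BB and PPBP were well above background on 0 arrays. Leukocyte markers went both ways, with CD247 at -1.33 ± 0.23 and CD163 at 1.42 ± 0.32 (SE), and a mean of -0.72 to -0.44 in ischemia kidneys, against -0.70 to -0.54 in control kidneys. The podocyte markers WT1 and PODXL were at 0.69 ± 0.36 and 0.08 ± 0.24 (SE), with a mean of -1.67 to -0.81 in ischemia kidneys, against -2.03 to -1.50 in control kidneys. The part of these cell types in the endothelial values was not tested.

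**Figure D4:**
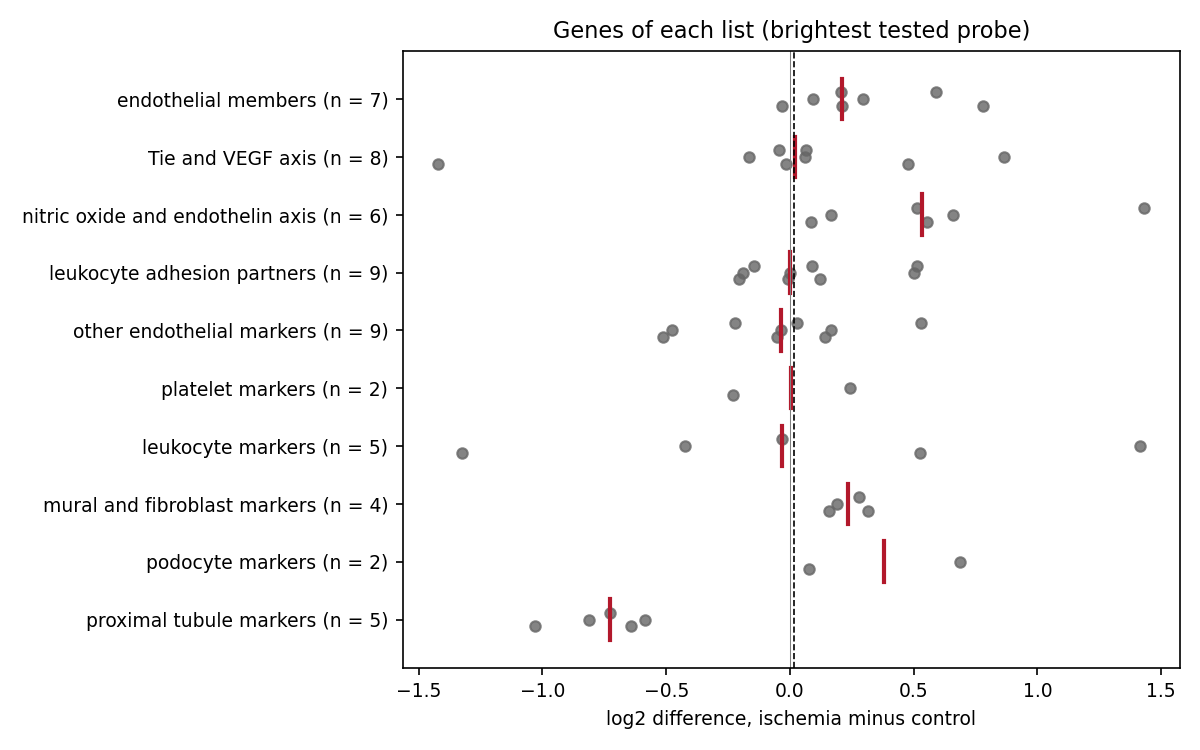
Log2 difference, ischemia minus control, of each tested gene (points, brightest probe) by list, with the list median as a red line and the median of 3663 named genes as a dashed line. The 7 endothelial members have a median of 0.21, other endothelial markers -0.04, the nitric oxide and endothelin axis 0.53 and proximal tubule markers -0.73.

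The genes whose pattern over the 6 arrays was most like that of TEK (brightest probe), among 3653 candidates, were MAOA, GRK5 and GIT2, each with a Pearson correlation of 0.98. MAOA read 5.82, 5.42 and 5.76 in ischemia kidneys, against 5.31, 5.25 and 4.77 in control kidneys. The most like NOS3 were ENTPD5, SLC17A1 and SPARCL1, with correlations of 0.98, 0.97 and 0.97. With 6 arrays, 34 candidates had a correlation over 0.9 with TEK and 22 with NOS3.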

How the data were processed

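The authors deposited 1 scanner file per array, whose processed intensity had its background removed and spatial trend corrected by Agilent Feature Extraction 10.10.1.1, per the file headers (the submitters' processing notes name 11.5.1.1, R 2.15.2 and limma). Their deposited log2 value table, for which the sources used here name no step between arrays, was an alternative. It holds 19245 of the 25017 probes tested, so its counts and medians rest on fewer probes. Values here are log2 processed signal minus each array's 75th percentile, without control and outlier spots. Of 43603 probes, 25017 were tested, namely those well above background on at least 3 arrays and with values on at least 5. No member spot was saturated. Ischemia was set against control in R 4.3.3 with limma 3.58.1 (lmFit and eBayes, two-sided, Benjamini-Hochberg over all probes tested), and the procedure was tested on simulated data. Lists were matched by gene name or accession (10563 probes named), described without a test, with the brightest tested probe for each gene. Genes named are all members, up to 4 per pathway list and 2 per marker list by smallest p, and the 3 most correlated with TEK and NOS3. ANGPT1, ANGPT2, SELPLG, GP1BB and PPBP were added after their values were seen, and 1 gene of the adhesion list is not reported here. The members and lists were chosen with earlier results of these data known. Same-numbered arrays did not deviate together (correlations -0.35, -0.17 and -0.05). Arrays of the same slide did so on slides 3 and 1 (0.33 and 0.34) but hardly on slide 2 (0.10). Ischemia 1 and control 2, on different slides, had 0.06.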

Additional observations from a re-analysis of the deposited data

How the results depend on the processing

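No member probe passed at an adjusted p under 0.05 in any of the 16 settings, and the lowest limma adjusted p was 0.216 (TEK A_72_P691513 in the deposited values). The TEK differences stayed above 0 in every setting run for them, between 0.55 and 0.98, but their unadjusted p ran up to 0.0944. The number of probes called over all probes was 1. It was 11 with median centring, 3 each with normexp background correction, the deposited values and probes well above background on all 6 arrays, and 0 each with quantile normalization, no filter on dim probes, slide as a block and the replicate block. Leaving out each array in turn gave 0 to 1. With the replicate block 0 member probes had an unadjusted p under 0.05, and the numbers do not pair the kidneys. Of 188 alternative values of member probes, 14 changed sign, none of them past the threshold. With each array left out, NOS3 A_72_P177526 ran from -0.0213 to 0.68, PECAM1 A_72_P446708 from -0.11 to 0.15, A_72_P077376 from -0.0713 to 0.20, A_72_P650260 from -0.0181 to 0.26, and VWF A_72_P293294 from -0.19 to 0.19. PECAM1 A_72_P446708 was 0.14 with median centring and 0.0265 with quantile normalization, VWF 0.12 after median centring and 0.22 in the deposited table, and EDN1 -0.0625 with normexp. The median of the leukocyte adhesion list was 0.28 in the deposited values. That of the mural list was 0.38 after median centring, 0.46 in the authors' deposited table and 0.38 with the mean of all probes. Some list medians near 0 changed sign, the Tie and VEGF axis to -0.032 with normexp, and other endothelial and leukocyte markers each to positive values with median centring (0.11 and 0.12) and in the authors' table (0.12 and 0.13). The median difference over all tested probes was -0.04, 0.11 after centring on the median and 0.14 in the authors' table. Median centring subtracts another constant from each array, so it moved the differences of all probes with 6 values by the same amount. The cause of the changes in the other settings was not tested. Dim probes (EDN1, SELE) are limited by signal over background.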
